A study of Mus musculus with 3 samples.

Results

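The genes described here are 9 genes of simple epithelia: 4 claudins (Cldn3, Cldn4, Cldn6 and Cldn7), occludin (Ocln), 3 keratins (Krt8, Krt18 and Krt19) and the splicing regulator Esrp1. They were chosen by name, with earlier results of these data known. The table that pairs array probes with genes named each of them for 1 probe, so that 9 of 25697 probes and 9 of 16593 genes are described. Illumina bead arrays measured the RNA of 3 mouse cultures, with 1 array for each. The E3R culture holds reverted cells of the epiblast stem cell line E3, which has a hybrid background, grown on gelatin in KSR medium to which 3 additions were made, namely the cytokine LIF at 1000 U, CHIR99021, which inhibits GSK3, at 3 µM, and PD0325901, which inhibits MEK, at 1 µM. The E3 culture holds unreverted epiblast stem cells, grown in KSR medium with 5 ng/ml FGF2 on inactivated CF1 mouse embryonic fibroblasts and taken off with collagenase IV. The CGR8 culture holds embryonic stem cells and shared both medium and gelatin with E3R. No culture had a further treatment. The labels do not say whether E3R is a single clone, and reversion, medium, feeder layer and harvest cannot be told apart in the comparison of E3R with E3, which are the same line. E3 and CGR8 differ in line as well, and E3R and CGR8 share culture conditions but not the line, so that line and reversion history cannot be told apart there. With 1 array per culture there is no test across samples and no p-value.

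Claudins are membrane proteins that seal neighbouring epithelial cells at tight junctions, and occludin is another component of the same junctions. Keratins 8, 18 and 19 build the intermediate filaments of simple epithelia, in which the type II keratin 8 pairs with the type I keratins 18 or 19. Esrp1 binds RNA and promotes the epithelial splice forms of its target transcripts. The epiblast of the post-implantation embryo, the tissue from which epiblast stem cells are derived, is an epithelium, and embryonic stem cells also adhere through E-cadherin.

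Krt8 and Krt18 are direct neighbours on chromosome 15 and are read away from each other, with annotated starts 23.9 kb apart. Cldn4 and Cldn3 are neighbours on chromosome 5 in the same arrangement, 39.3 kb apart. The 250 bases before the annotated start are shown for these pairs, which on the arrays behaved alike in the first case and differently in the second, and for Cldn6, which had the largest differences of the 9 genes. They are from RefSeq on GRCm38.p6, 5′ to 3′ along the gene's own strand. Capitals mark CACCTG or its reverse CAGGTG (an E-box form to which the repressors Zeb1 and Snai1 can bind), CCGCCC or its reverse GGGCGG (a GC box) and TGACTCA or its reverse TGAGTCA (an AP-1 motif), and no marked match overlaps another.
Krt8, chr15:102004343-102004592, minus strand: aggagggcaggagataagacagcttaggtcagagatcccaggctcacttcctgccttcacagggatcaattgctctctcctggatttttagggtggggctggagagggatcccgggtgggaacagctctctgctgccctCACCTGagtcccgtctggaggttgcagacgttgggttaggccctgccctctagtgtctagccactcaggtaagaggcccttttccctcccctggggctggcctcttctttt
Krt18, chr15:102027966-102028215, plus strand: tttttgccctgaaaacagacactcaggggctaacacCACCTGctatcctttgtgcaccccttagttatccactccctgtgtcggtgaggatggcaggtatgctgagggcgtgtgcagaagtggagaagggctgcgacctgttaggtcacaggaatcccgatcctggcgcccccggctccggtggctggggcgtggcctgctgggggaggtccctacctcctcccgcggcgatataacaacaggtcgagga
Cldn3, chr5:134985964-134986213, plus strand: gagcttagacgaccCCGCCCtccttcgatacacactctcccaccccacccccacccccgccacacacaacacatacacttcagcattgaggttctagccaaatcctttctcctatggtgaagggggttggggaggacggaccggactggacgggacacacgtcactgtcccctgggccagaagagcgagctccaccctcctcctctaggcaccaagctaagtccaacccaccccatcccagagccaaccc
Cldn4, chr5:134946935-134947184, minus strand: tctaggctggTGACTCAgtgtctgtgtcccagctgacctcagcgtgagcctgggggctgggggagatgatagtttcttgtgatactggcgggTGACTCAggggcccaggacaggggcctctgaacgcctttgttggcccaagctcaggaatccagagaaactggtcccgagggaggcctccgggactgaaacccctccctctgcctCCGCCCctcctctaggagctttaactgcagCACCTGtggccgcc
Cldn6, chr17:23679115-23679364, plus strand: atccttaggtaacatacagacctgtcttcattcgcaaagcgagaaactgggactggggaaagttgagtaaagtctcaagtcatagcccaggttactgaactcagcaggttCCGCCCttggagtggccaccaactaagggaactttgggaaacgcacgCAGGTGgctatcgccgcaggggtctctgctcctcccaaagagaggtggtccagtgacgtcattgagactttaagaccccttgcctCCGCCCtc

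The E-box form was found once each in the windows of Krt8, Krt18, Cldn4 and Cldn6 and not in that of Cldn3, and 17.2% of 32851 promoter windows of this length hold it on either strand. The GC box was found in all 3 claudin windows shown and in neither keratin window, against 32.7% of all windows. Among windows not shown, that of the first Cldn7 start had 0 GC boxes, and those of its second start and of both Ocln starts had 1 each. The E-box form was found at 2 places each before the second Cldn7 start and the second Ocln start, and at 0 before their first starts. The Cldn4 window alone of these 5 holds TGACTCA, at 2 places, against 4.46% of all windows with at least 1 match. A TATAAA or TTTATA was in none of the 5 windows and in 12.4% of all. The Krt8 window holds 3 CpG dinucleotides and that of Krt18 holds 12, around a median of 6 over all windows. The motifs were picked with the arrays' values and these sequences in view, and a match describes letters, not binding.

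A probe counted as detected where its deposited detection p-value, a comparison with negative control beads, was under 0.01. Over the whole array 38.9% of probes were detected for E3R, 42.0% for E3 and 38.4% for CGR8, and the median raw signals were 85.3, 89.2 and 92.9. Of the 9 genes, 5 were detected in E3R cells, 8 in E3 cells and 6 in CGR8 cells. The raw signals below carry the bead standard error, which covers the beads of 1 probe on 1 array and leaves out any variation between cultures. Differences are of log2 signals after background correction and quantile normalization. For a probe undetected on the dimmer array, the higher of its own signal and the lowest detected signal there was used. The difference is then a lower bound written as "at least". In bulk RNA, fewer cells that express a gene and less RNA per cell cannot be told apart. The culture labels fit the marker genes in these RNAs: Fgf5, a growth factor gene of the primed epiblast, was detected in E3 alone, and the naive factor gene Esrrb was 86.5-fold higher in E3R than in E3 cells.

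**Figure D1:**
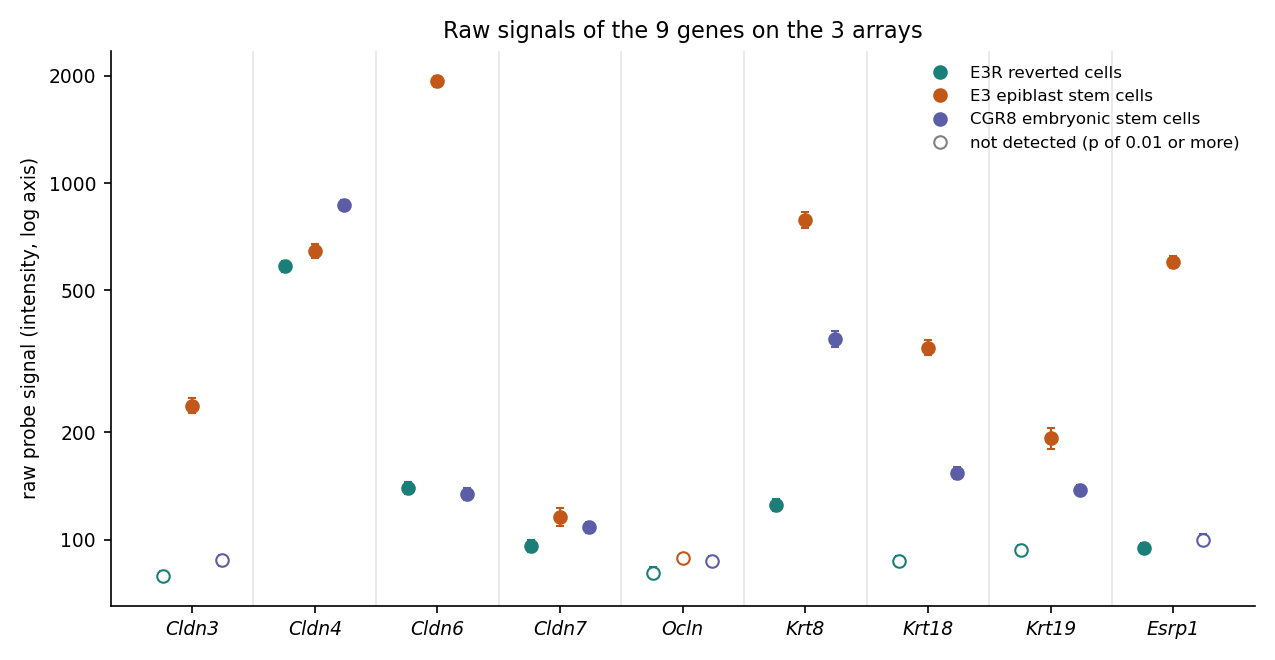
Raw probe signal (intensity, log axis) of the 9 genes on the E3R, E3 and CGR8 arrays, with bars for the bead standard error and open circles for signals that were not detected. E3 cells have the highest signal for every gene but Cldn4, and Cldn6 spans the widest range, with 140 in E3R, 1932 in E3 and 134 in CGR8 cells.

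The comparison of reverted with unreverted cells of the same line asks which of these genes differed after reversion. Cldn6, Esrp1, Krt8, Krt18, Cldn3 and Krt19 were lower in E3R than in E3 cells, by 3.62-fold or more, whereas Cldn4 and Cldn7 were within 2-fold and Ocln was not detected. Thus 6 of the 9 genes were lower by 2-fold or more and 0 were higher by as much. Across the 7726 genes that could be compared, 12.4% were lower in E3R by 2-fold or more and 12.7% were higher. The median difference of the 8 genes with a value was −2.66 on the log2 scale, beside −0.02 over all genes with a value. As earlier results of these data were known when the 9 genes were chosen, the contrast with all genes only describes them. For Cldn3, Krt18 and Krt19, which were not detected in E3R, a higher value there could not have been recorded.

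Cldn6, a claudin of embryonic epithelia, had a raw signal of 140 ± 5.34 in E3R cells, 1932 ± 66.4 in E3 cells and 134 ± 5.20 in CGR8 cells (bead standard error). It was bright in E3 and low but detected in both naive cultures. The difference between E3R and E3 was −4.38 on the log2 scale, or 20.8-fold lower in E3R (bead standard error 0.11). It was −3.60 without background correction and −4.56 with the authors' processed values. Only 5 genes of the array had a lower value in this comparison, of which some are bounds. Compared with CGR8, Cldn6 was 1.40-fold higher in E3R (log2 0.49, bead standard error 0.15). That is larger than the bead error and smaller than 2-fold. Against CGR8, E3 cells were 29.1-fold higher (log2 4.86, and 3.86 without background correction).

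Cldn3, which with Cldn4 is a receptor for Clostridium perfringens enterotoxin, was detected in E3 alone. Its raw signal was 79.1 ± 2.30 in E3R cells, 238 ± 11.1 in E3 cells and 87.5 ± 3.12 in CGR8 cells. E3R cells were at least 4.99-fold lower than E3 cells (log2 −2.32), and E3 cells were at least 4.85-fold higher than CGR8 cells. Both naive cultures were at the level of negative controls, with detection p-values of 0.434 in E3R and 0.263 in CGR8, so no difference between them could be measured. Both bounds are smaller without background correction, at −1.23 for E3R against E3 and 1.21 for E3 against CGR8 on the log2 scale.

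Its neighbour Cldn4 was bright on all 3 arrays. The raw signal was 585 ± 21.1 in E3R cells, 645 ± 28.3 in E3 cells and 871 ± 26.5 in CGR8 cells. The log2 difference between E3R and E3 was 0.05, with a bead standard error of 0.09, and so lay within the bead error. CGR8 was the highest of the 3: E3R cells were 1.25-fold lower than CGR8 (log2 −0.33, bead standard error 0.07) and E3 cells 1.30-fold lower (−0.38, bead standard error 0.08). Cldn4 was thus the single gene of the 9 with its lowest normalized signal in E3 cells. On the far side of Cldn3, Abhd11 had log2 signals of 8.33 in E3R, 8.12 in E3 and 8.47 in CGR8 cells. Of the genes on both sides of Cldn3, neither was 2-fold apart between any 2 arrays.

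Cldn7, a claudin of many epithelia that is also found along the lateral membrane, was just above background. Its raw signal was 96.0 ± 3.64 in E3R cells, 116 ± 6.82 in E3 cells and 108 ± 3.89 in CGR8 cells. No pair of arrays differed by more than 1.37-fold, and all 3 differences lay within the 95% interval that the bead errors give around 0. Signals this dim would not show a moderate difference. Ocln was not detected on any array, with raw signals of 80.8 ± 2.88 in E3R, 88.6 ± 2.25 in E3 and 87.2 ± 2.85 in CGR8 cells. The lowest of its 3 detection p-values was 0.0752, in E3 cells. This says only that the probe gave no signal above the negative controls.

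The keratins showed a second pattern, with CGR8 cells between the other 2 cultures. Krt8 had a raw signal of 125 ± 4.51 in E3R cells, 788 ± 40.9 in E3 cells and 366 ± 19.7 in CGR8 cells. It was detected on all 3 arrays and lowest in E3R. E3R cells were 10.3-fold lower than E3 cells (log2 −3.37, bead standard error 0.14). Without background correction this difference was −2.52. They were also 3.98-fold lower than CGR8 cells (−1.99, bead standard error 0.15), the 7th lowest value of 7286 genes in that comparison. E3 cells were 2.59-fold higher than CGR8 cells (1.37, bead standard error 0.13). The gene table also lists a pseudogene, Krt8-ps, and whether the Krt8 probe reads its transcripts was not tested.

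Krt18, the filament partner of keratin 8, had a raw signal of 87.2 ± 2.68 in E3R cells, 346 ± 16.7 in E3 cells and 154 ± 5.64 in CGR8 cells. The order of the cultures was that of Krt8, except that Krt18 was not detected in E3R. E3R cells were at least 8.06-fold lower than E3 cells (log2 −3.01) and at least 2.37-fold lower than CGR8 cells. The bound against E3 was −1.75 without background correction and −2.17 at an offset of 50. E3 cells were 3.40-fold higher than CGR8 cells (log2 1.76, bead standard error 0.13, and 1.21 without background correction). The next gene along the chromosome, the translation factor gene Eif4b, ran the other way, with log2 signals of 9.09 in E3R, 8.09 in E3 and 8.42 in CGR8 cells. Krt79 and Krt78, which precede Krt8, were not detected on any array.

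Krt19, the smallest of the keratins and a second partner of keratin 8, had a raw signal of 93.6 ± 3.26 in E3R cells, 192 ± 13.1 in E3 cells and 138 ± 4.43 in CGR8 cells. It missed the detection threshold in E3R narrowly, with a p-value of 0.0150. E3R cells were at least 3.62-fold lower than E3 cells (log2 −1.85). This difference is under 2-fold without background correction (−0.91). Against CGR8, E3R cells were at least 1.93-fold lower and E3 cells 1.87-fold higher (log2 0.90, bead standard error 0.18). The neighbours of Krt19 in the type I keratin cluster, Krt13, Krt15, Krt9 and Krt14, were not detected on any array.

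Esrp1 had a raw signal of 95.00 ± 2.99 in E3R cells, 600 ± 22.7 in E3 cells and 99.98 ± 3.43 in CGR8 cells. It stood far above background in E3 and at its edge in the naive cultures, with detection p-values of 0.00752 in E3R and 0.0226 in CGR8. E3R cells were 15.2-fold lower than E3 cells (log2 −3.93, bead standard error 0.16), and E3 cells were at least 15.2-fold higher than CGR8 cells. The signal in E3R was near the lowest detected signal of that array, and the size of the difference from E3 depended on the background model. It was −2.55 without background correction, −3.03 at an offset of 50 and −4.68 with the authors' processed values. Against CGR8, the bound for E3 was 2.55 without background correction. No difference between E3R and CGR8 can be given, as the bound left none. Only 7 genes of the array had a lower value than Esrp1 in the comparison of E3R with E3.

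**Figure D2:**
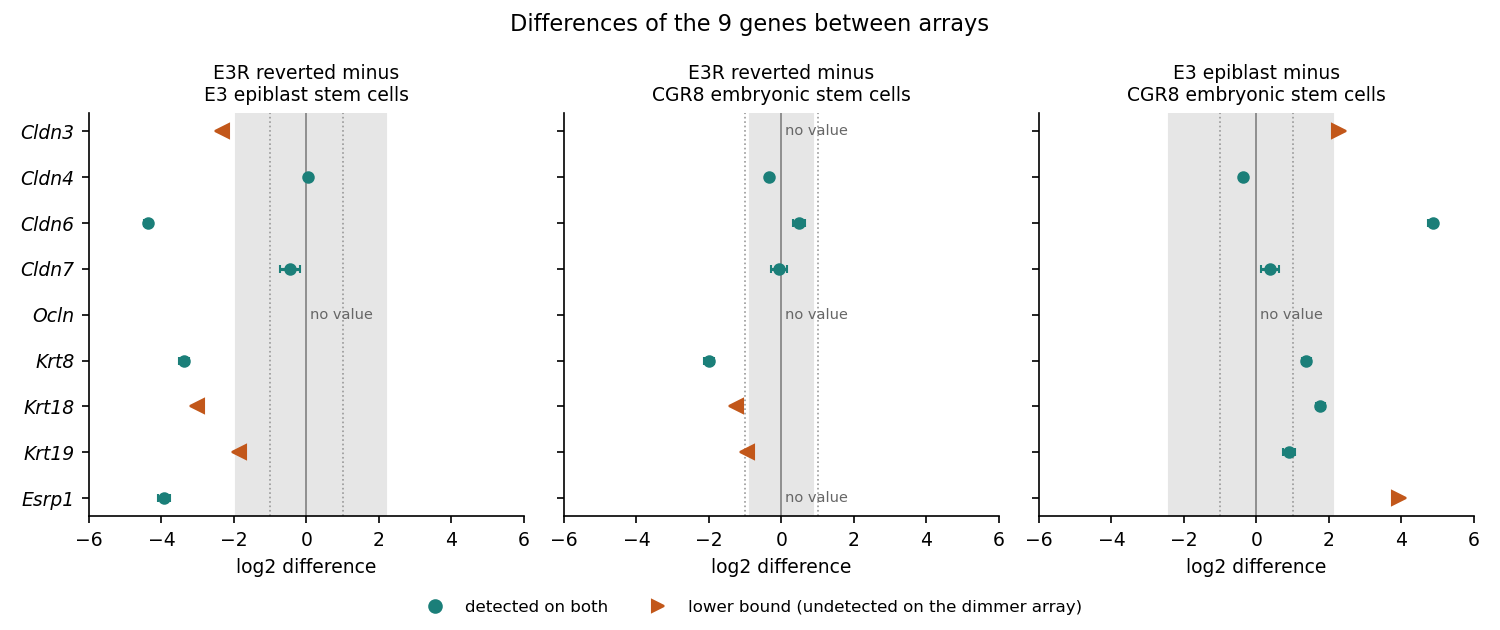
Log2 difference of each of the 9 genes in the 3 pairs of arrays, with bars for the bead standard error, triangles for lower bounds, dotted lines at 2-fold and a grey band that holds the middle 95% of all genes with a value. Cldn6, Esrp1, Krt8, Krt18 and Cldn3 lie beyond the lower edge of the band (−1.93) for E3R minus E3, and for E3R minus CGR8 the 3 keratins lie beyond its lower edge (−0.86).

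The comparison of reverted cells with embryonic stem cells in the same medium asks which of these genes still set them apart. Krt8 and Krt18 were at least 2-fold lower in E3R than in CGR8 cells and none of the 9 was at least 2-fold higher. Krt18 and Krt19 were not detected in E3R and so could not have come out higher there. Of the 4 genes detected on both arrays, Krt8 alone was past 2-fold. Across the 7286 genes that could be compared, 1.54% were lower in E3R by 2-fold or more and 1.81% were higher. Krt19 came next among the 9 genes and was past 2-fold with the authors' processed values (−1.48), and Cldn4, Cldn6 and Cldn7 were within 2-fold. Cldn3, Ocln and Esrp1 had no value. Without background correction Krt18 was under 2-fold (log2 −0.55), as with the offset raised to 50 (−0.75), whereas Krt8 was not (−1.33 and −1.58).

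The comparison of epiblast with embryonic stem cells sets the primed against the naive culture. Cldn6, Esrp1, Cldn3, Krt18 and Krt8 were at least 2-fold higher in E3 than in CGR8 cells, and none of the 9 was at least 2-fold lower. Cldn3 and Esrp1 were not detected in CGR8 and so could not have come out lower in E3. Across the 7698 genes that could be compared, 13.9% were higher in E3 by 2-fold or more and 13.4% were lower. The median difference of the 8 genes with a value was 1.57 on the log2 scale, beside 0.01 over all genes, and that of the 6 detected on both arrays was 1.14. This comparison shares an array with each of the other 2, so that its values are not independent of theirs.

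Other genes of the same structures were taken from lists that were written for these gene families. They differed in both directions between E3R and E3 cells. Beside the counts of each list stand the shares over all genes, 12.4% lower in E3R by 2-fold or more and 12.7% higher. A listed gene not detected in E3R could only come out lower there, and a gene not detected in E3 only higher in E3R. Of 15 other claudins on the array, 4 had a value and 1 was at least 2-fold lower in E3R: Cldn11, the claudin of myelin and of Sertoli cells, by at least 2.28-fold (−0.52 on the log2 scale without background correction). Cldn12 was 1.81-fold lower. Cldn9, the neighbour of Cldn6, was detected on all 3 arrays and differed by 1.11-fold between E3R and E3, and by 1.17-fold between E3 and CGR8. Cldn1, Cldn2 and Cldn8 were not detected on any array.

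Among 18 genes of tight junction scaffolds and cell polarity, 13 had a value, of which 4 were lower in E3R than in E3 cells by 2-fold or more and 1 was higher, around a median log2 difference of −0.62. Among the 6 detected on both arrays, 3 were lower by as much, 0 were higher and the median was −0.63. The scaffold gene Tjp3 was 3.49-fold lower (log2 −1.80) and the polarity gene Pard6a 2.46-fold lower. Marveld3, which encodes a relative of occludin, was at least 2.25-fold lower, and the scaffold gene Magi3 at least 2.35-fold higher. Without background correction 0 of the 13 were past 2-fold, Tjp3 being at −0.97.

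Keratins beyond the 3 described were few. Of 15 on the array, 2 had a value for E3R against E3 cells. Krt17 was 3.04-fold higher in E3R and Krt10 2.32-fold lower, both under 2-fold without background correction. Among 9 genes of desmosomes and keratin linkers, 5 had a value, with 1 lower in E3R by 2-fold or more, 1 higher and a median log2 difference of 0.82. The plakophilin gene Pkp2 was 2.43-fold lower in E3R (log2 −1.28), while Plec, which encodes the linker plectin, was 2.10-fold higher (1.07). With the mean of its probes the difference of Plec was 0.05. The plakophilin gene Pkp3 was at least 1.90-fold higher in E3R and Dsg2, which encodes a desmosomal cadherin, 1.76-fold higher.

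Of 18 other epithelial regulators and adhesion genes, 15 had a value for E3R against E3 cells. Of these, 5 were lower by 2-fold or more and 2 higher, beside 12.4% and 12.7% of all genes. Their median log2 difference was −0.30. Rab25, Cdh3 and Grhl1 were not detected in E3R and so could not have come out higher there. Among the 12 detected on both arrays, 3 were lower by 2-fold or more, 2 were higher and the median was −0.10. The small GTPase gene Rab25 was at least 7.73-fold lower in E3R, Lsr, which encodes a protein of tricellular junctions, 7.09-fold lower and the epithelial sorting adaptor gene Ap1m2 6.62-fold lower. The ETS factor gene Elf3, also expressed in many epithelia, ran the other way and was 6.59-fold higher in E3R. These 4 stayed past 2-fold under the 9 alternatives, save that Rab25 has no value where detection on both arrays is required. Cdh1, which encodes E-cadherin and was picked with its value in view, differed by 1.29-fold, with log2 signals of 9.13 in E3R, 8.76 in E3 and 8.91 in CGR8 cells. Between E3R and CGR8, 0 of the 12 genes with a value were past 2-fold, where over all genes only 1.54% were lower and 1.81% higher.

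**Figure D3:**
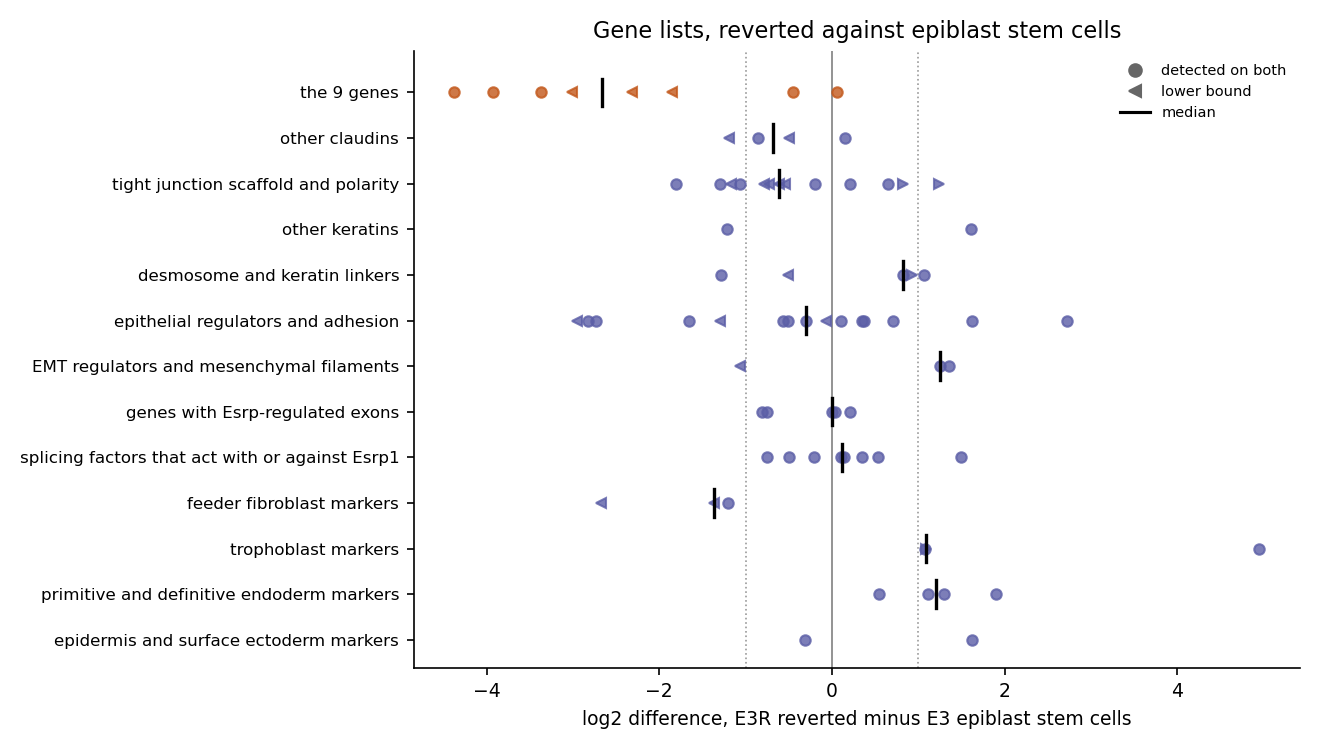
Log2 difference between E3R reverted and E3 epiblast stem cells for the 9 genes and for the members of each list that had a value, with triangles for lower bounds, a black bar for the median of lists with at least 3 values and dotted lines at 2-fold. The 9 genes have a median of −2.66, the tight junction scaffold list −0.62 and the epithelial regulator list −0.30, with single genes on both sides of 0 in each of these lists.

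Of 10 regulators and filament genes of the mesenchymal state on the array, 3 had a value for E3R against E3 cells. Zeb1, a repressor of epithelial genes, was 2.56-fold higher in E3R (log2 1.35, but 0.77 if the background stays in, and 0.97 at the larger offset), with log2 signals of 7.14 in E3R, 5.79 in E3 and 7.65 in CGR8 cells. Vim, which encodes the mesenchymal filament protein vimentin, was 2.38-fold higher and the muscle filament gene Des at least 2.09-fold lower (−0.45 without background correction). Zeb2 was not detected on any array.

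Esrp2, the paralogue of Esrp1, was not detected on any array, with log2 signals between 4.38 and 4.72. It was picked with its values in view. Of 11 splicing factor genes in that list, 8 had a value for E3R against E3 cells and 7 of these were within 2-fold. Rbfox2, which acts on many of the same exons, was 2.80-fold higher in E3R (log2 1.49, but 0.78 without background correction). Among 9 genes with exons known to depend on Esrp proteins, 5 had a value and 0 were past 2-fold, with Scrib at −0.81 and Mbnl1 at −0.76. Fgfr2, Cd44 and Ctnnd1 were not detected on any array. Single probes do not show which exons a transcript contains, so splicing was not measured.

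Keratins 8, 18 and 19 and several claudins are also expressed in trophoblast, in extraembryonic and definitive endoderm and in surface ectoderm, and fibroblast feeders were present in the E3 culture alone. Of 12 fibroblast markers, 3 were detected in E3 cells (Thy1, Dcn and Acta2). In E3R cells 1 was detected (Acta2), as was 1 in CGR8 cells (Pdgfra). Thy1, also made by other cells, was at least 6.38-fold lower in E3R than in E3 cells. Their summed normalized signal, undetected probes included, was 293 in E3R, 638 in E3 and 260 in CGR8 cells. The collagen genes Col1a1, Col1a2 and Col3a1 were not detected on any array. The 3 fibroblast markers with a value were lower in E3R than in E3 cells by 2-fold or more, beside 12.4% of all genes. For Thy1 and Dcn, which were not detected in E3R, a higher value there could not have been recorded. Of the 3 markers, 1 was past 2-fold without background correction, at an offset of 50 or with the mean of a gene's probes. The part of feeders in the differences of the 6 genes that were higher in E3 was not tested.

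Of the trophoblast markers, Cdx2, Eomes, Gata3 and Elf5 were not detected in E3R or E3 cells. The first 3 were detected in CGR8 cells at log2 signals of 5.30, 5.20 and 5.24, close to the lowest detected signal of that array, 5.10. Summed over 10 markers on the array the signal was 3235 in E3R, 308 in E3 and 2315 in CGR8 cells, most of it in E3R and CGR8 from Tfap2c, a gene that naive and germ cells also express. The 3 trophoblast markers with a value were higher in E3R than in E3 by 2-fold or more, beside 12.7% of all genes. Tfap2c was 30.9-fold, Tead4 at least 2.13-fold and Bmp4 2.11-fold higher. Tead4 was not detected in E3 and so could not have come out lower in E3R. Without background correction 1 of the 3 was past 2-fold. Among endoderm markers Gata4, Sox17 and Foxa2 were not detected on any array. The endoderm factor gene Gata6 had log2 signals of 7.62 in E3R, 5.72 in E3 and 8.93 in CGR8 cells. The summed signal of the 12 endoderm markers was 691 in E3R, 377 in E3 and 1204 in CGR8 cells. Dab2, another of these markers, had log2 signals of 6.26 in E3R, 5.15 in E3 and 8.06 in CGR8 cells. Most of the spread of the endoderm sum between cultures came from Gata6 and Dab2. The endoderm sum was thus lower in E3R than in CGR8 cells, as Krt8 and Krt18 were. It was lowest in E3 cells, where Krt8 and Krt18 were highest, and its part in the keratin differences was not tested. Of 7 surface ectoderm markers, 2 were detected in E3R, 2 in E3 and 3 in CGR8 cells, and their summed signal was 236 in E3R, 179 in E3 and 323 in CGR8 cells. This sum was lower in E3R than in CGR8 cells and lowest in E3 cells, and its part in the keratin differences was not tested. Grhl3, an epidermal factor gene, had log2 signals of 6.50 in E3R, 4.88 in E3 and 7.33 in CGR8 cells. Most of the spread of the surface ectoderm sum between cultures came from this gene. Dlx3 was detected in E3R and E3 cells, at 5.14 and 5.45. Of the 4 markers listed as defining, Trp63, Krt5 and Krt14 were not detected on any array, and Tfap2a was detected in CGR8 alone, at a log2 signal of 5.27.

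Genes with the most similar profiles were sought among 6105 genes detected on all 3 arrays, by the root mean square distance between log2 signals centred on each gene's own mean. For Cldn6 these were Lefty1, which encodes an inhibitor of Nodal, at a distance of 0.32, Nabp2 at 0.33 and Ddx25 at 0.40. For Krt8 they were the carbonic anhydrase gene Car2 at 0.22, Klf6 at 0.44 and the immediate early gene Fos at 0.47. For Esrp1, entered at its measured signals, they were Nabp2 at 0.11, Mlf1 and the primed factor gene Pou3f1, both at 0.25. A profile over 3 arrays has only 2 free differences, so many genes lie close by.

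**Figure D4:**
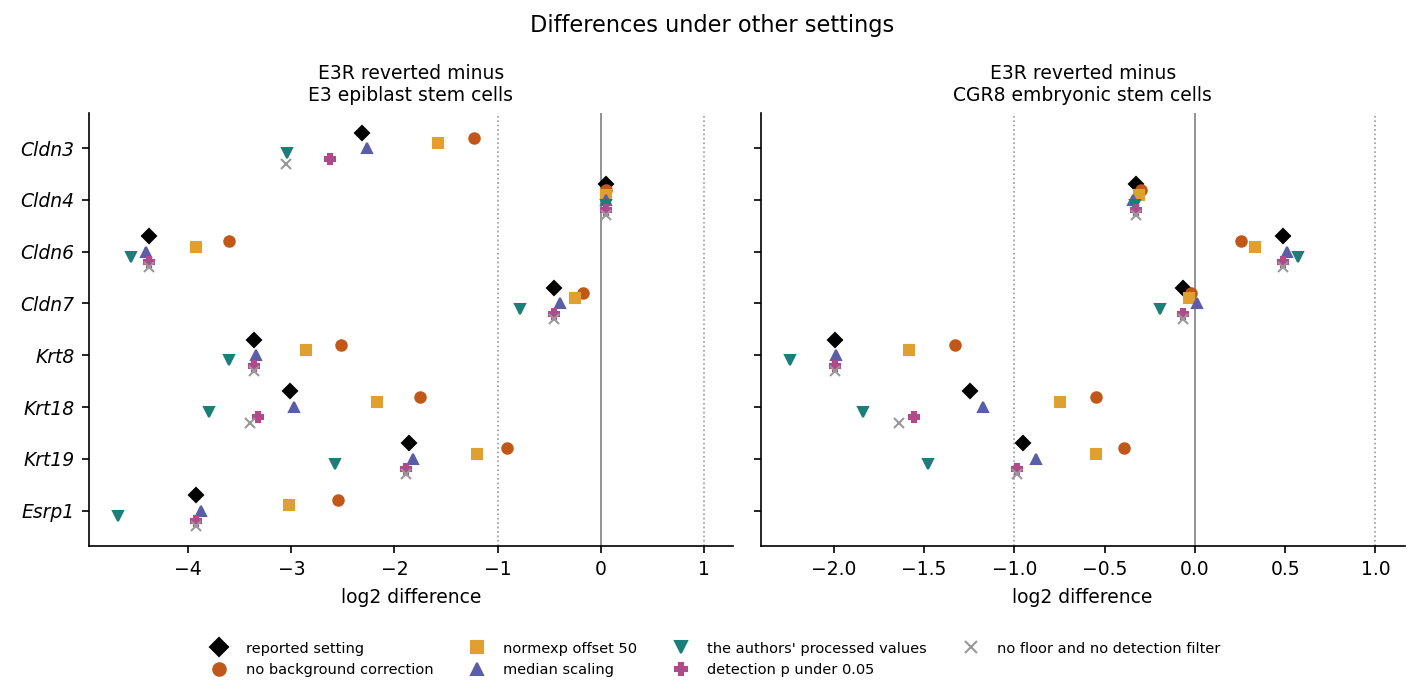
Log2 difference of 8 genes for E3R minus E3 (left) and E3R minus CGR8 (right) under the reported setting and 6 alternatives, with dotted lines at 2-fold. Genes without a reported value are left out, Ocln from both panels and Cldn3 and Esrp1 from the right one. For E3R minus E3, Cldn6 ranges from −4.56 to −3.60 and stays far past 2-fold, Krt19 ranges from −2.57 to −0.91, and Cldn4 stays at 0.05.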

How the data were processed

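The 9 genes, the gene lists and the tests were chosen with earlier results of these data known. Per the labels' protocols, 400 ng of RNA from each culture went into a 12 h amplification, and the product carried Cy3. Per the file headers, the authors deposited 3 values for every probe on an array: the raw intensity, the bead standard error of that intensity and a detection p-value. A further deposited table holds intensity values after processing, for which the sources used here state no normalization. The submitters' processing notes name BeadStudio.

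For this report the neqc function of limma 3.58.1 (R 4.3.3) corrected the background from the detection p-values, added an offset of 16 and quantile-normalized all 25697 probes. The same steps were tested on simulated data in which only probes well above background were changed, so probes near background were not covered. Later steps used Python 3.11.15 and pandas 2.3.3. Bead errors were carried to the log2 scale through each array's own normalization curve. Of all probes 23978 had 1 gene symbol, 1719 had none and 0 had several. For 23962 probes the current symbol was taken by gene identifier, whether or not it had changed. A gene with several probes takes the one with the highest mean signal. A gene undetected on both arrays of a pair got no difference. The floors for undetected probes were log2 signals of 5.06 for E3R, 4.87 for E3 and 5.10 for CGR8. Genes were counted at 2-fold or more.

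Each of the 9 genes is reported on all 3 arrays. Of 15 lists with 180 entries, 164 entries matched a gene on the array. Up to 4 measured genes of a list with the largest differences between E3R and E3 are named, the first 4 markers of other cell types whatever their value, and the 3 nearest profiles to Cldn6, Krt8 and Esrp1. Promoters were on file for 7 of the 9 genes, without Krt19 and Esrp1. With 1 array per culture, the number of arrays limits the precision. The 9 alternatives were no background correction, an offset of 50, median scaling, the authors' processed values, detection at 0.05, a threshold of 3-fold, averaged probes, detection on both arrays, and no floor.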

Additional observations from a re-analysis of the deposited data

How the results depend on the processing

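None of the differences of the 9 genes that were 2-fold or more changed direction under the 9 alternatives. The count of genes lower in E3R than in E3 cells by 2-fold or more was 6, and it was 3 when detection on both arrays was required, which by construction drops the 3 genes not detected in E3R, and 5 without background correction, where Krt19 was at −0.91. The count of genes higher in E3 than in CGR8 cells was 5, and it was 3 under the same requirement, 4 at a threshold of 3-fold (without Krt8) and 6 with the authors' processed values (with Krt19). The count of genes lower in E3R than in CGR8 cells was 2 (Krt8 and Krt18), and it was 1 without background correction, at an offset of 50, at a threshold of 3-fold and with detection on both arrays, but 3 with the authors' processed values (with Krt19). Sizes depend on the background model: of 22 differences, 14 moved beyond the 95% interval of their bead errors without background correction, 13 at an offset of 50, 9 with the authors' processed values and 0 under median scaling. Over all genes, E3R against E3 gave 981 higher and 957 lower, but 553 and 470 without background correction, 688 and 618 at an offset of 50, and 427 and 332 at 3-fold. With the authors' processed values these counts rose to 1363 and 1244. E3R against CGR8 gave 132 higher and 112 lower, but 38 and 37 without background correction, 59 and 55 at an offset of 50, 219 and 210 with the authors' processed values, and 26 and 24 at 3-fold. E3 against CGR8 gave 1067 higher and 1035 lower, but 538 and 572 without background correction, 690 and 721 at an offset of 50, and 410 and 467 at 3-fold. Here the authors' processed values gave 1332 and 1430. No paired analysis was possible because each group had 1 array and the labels give no replicate numbers. Probes near background, such as those of Cldn7 and Ocln, limit what these arrays can show.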
